A study of Mus musculus with 27 samples.

Results

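Genes used as markers of infiltrating monocytes and macrophages were followed in mouse liver: Ly6c2, Ccr2, Cx3cr1, Adgre1, Itgam, Itgax, Csf1r, Lyz2 and Cd68. They were taken by symbol from a raw count table and make up 9 of its 55414 genes. All 9 reached a mean of 10 counts per library and so stood among the 14114 genes tested. The libraries came from whole liver homogenates of 27 female Balb/c mice aged 8 weeks, 1 library per mouse. The study used carbon tetrachloride (CCl4), a solvent that injures hepatocytes and leads to fibrosis, and asked what lowering hyaluronan synthesis does to the injured liver.

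The mice fell into 8 groups. Healthy mice were injected intraperitoneally with olive oil, and were otherwise given PBS into the tail vein (control, n = 4), 4-methylumbelliferone by gavage (4MU, n = 3), or lipid nanoparticles (LNPs) carrying an siRNA into the tail vein. The siRNA was directed at luciferase (siLuc-LNP, n = 3) or at hyaluronan synthase 2 (siHAS2-LNP, n = 3). The same additions were made in mice injected with CCl4 in place of the oil: CCl4 alone (n = 2), CCl4+4MU (n = 4), CCl4+siLuc-LNP (n = 4) and CCl4+siHAS2-LNP (n = 4). 4MU, an inhibitor of hyaluronan synthesis, was given at 600 mg/kg every day. The siRNA was given at 1 mg/kg and then at 0.5 mg/kg, 2 times a week for 2 weeks, and both treatments began 2 days before the first CCl4 dose. The labels of CCl4 alone name no tail vein injection, so its mice and the nanoparticle mice may differ in the injection too. Luciferase is not a mouse gene, so siLuc-LNP is the control for the particle and for a double-stranded RNA.

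Monocytes leave the bone marrow through the chemokine receptor Ccr2, enter injured tissue while rich in the surface protein Ly6c2, and turn into macrophages there. The liver also holds Kupffer cells, macrophages that settle before birth, renew themselves and carry Clec4f and Timd4. Most of the 9 genes are shared by both populations. Ccr2 and Ly6c2 lean towards recruited monocytes, and Adgre1 and Csf1r are strong in Kupffer cells as well. In a homogenate, fewer cells of a type and less RNA per cell cannot be told apart.

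The 9 genes lie on 7 chromosomes of GRCm39. Itgam (chr7:127661808-127717753, + strand) and Itgax (chr7:127728668-127749829, + strand) are neighbours, and Ccr2 (chr9:123901982-123913594, + strand) and Cx3cr1 (chr9:119877749-119898945, - strand) share a chromosome. Ly6c2 (chr15:74980003-74988467, - strand) has a close copy, Ly6c1, with which 21.7% of its 85-base exon windows were identical. Lyz2 (chr10:117111557-117118346, - strand) lies beside its own copy, Lyz1. Of its windows 9.97% occurred in another gene, mostly in Gm67237 (8.46%), which overlaps it on the opposite strand. For Itgam the share was 60.8%, because the predicted gene Gm49368 covers the same exons on the same strand, and reads assigned to more than 1 gene were not counted. The level of Itgam is therefore a level of part of its exons. Csf1r shared 17.3% of its windows with Hmgxb3 on the opposite strand, and the strand setting of the counting is not given in the sources used here. Adgre1 (chr17:57665573-57790527, + strand), Cd68 (chr11:69555037-69557067, - strand) and Cx3cr1 had no such windows.

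The 2 pairs of copies also resemble each other at their starts, as shown by the promoter stretches that hold the 7-base core AGGAAGT of PU.1, the transcription factor that defines the myeloid lineage. These are RefSeq promoters on GRCm38.p6, searched from 250 bases before to 50 bases after each start on both strands, with the core in capitals, or its reverse complement where it lies on the opposite strand.
Lyz2, chr10:117282342-117282396, - strand: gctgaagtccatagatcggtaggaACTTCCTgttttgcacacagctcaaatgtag
Lyz1, chr10:117292938-117292992, - strand: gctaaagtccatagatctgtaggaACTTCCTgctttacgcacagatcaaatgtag
Ly6c2, chr15:75111914-75111968, - strand: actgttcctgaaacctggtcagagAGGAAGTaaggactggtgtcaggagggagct
Ly6c1, chr15:75048759-75048813, - strand: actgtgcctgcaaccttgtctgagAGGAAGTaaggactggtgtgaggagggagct
The Lyz2 and Lyz1 promoters were identical at 201 of 300 aligned positions without gaps (67%), and both held the core at 100 bases before the start. The core stood in 9.35% of 32851 promoters, and among the members searched it was found for Lyz2 and Ly6c2 and not in the windows of Ccr2, Cx3cr1, Itgam, Itgax or Cd68. A shorter run, GAGGAA, was searched as well and stood in 28.3% of all promoters. It was found for Ly6c2, Itgam and Cd68 and not for Lyz2, Ccr2, Cx3cr1 or Itgax. Adgre1 and Csf1r were not searched. A match is a run of letters and not a shown binding site.

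Total counts ran from 7044386 (CCl4+siHAS2-LNP mouse 4) to 29425937, with a median of 22109517, so that 3 counts correspond to 0.104 to 0.401 CPM (counts scaled to a common library total). This floor covers counting error only. Has2, the target of the siRNA, was counted in 2 libraries only, with 2 counts in CCl4 mouse 2 and 1 count in CCl4+siLuc-LNP mouse 4, so its knockdown cannot be read here. CCl4 alone rests on 2 mice, and mouse 2 carried more of several members than mouse 1. Results that rest on it are given with and without it. Differences are log2 fold changes with their standard error (SE) from edgeR's quasi-likelihood test over all 8 groups, and adjusted p-values are Benjamini-Hochberg values over the 14114 genes, with 0.05 as the threshold. Over all genes tested, the median change was within 0.05 of 0 on the log2 scale in every comparison. Where the mice of groups are said to lie apart, the share of all genes that do so is not given. Such statements are descriptions, and small groups often lie apart.

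Per kilobase of exon, the lysosomal genes were highest. The median over 27 mice was 34.4 CPM per kilobase for Lyz2 and 9.48 for Cd68, followed by 6.3 for Csf1r and 3.6 for Adgre1. The recruitment receptors stood lower, with 1.68 CPM per kilobase for Cx3cr1, 1.01 for Ccr2 and 0.448 for Ly6c2. The integrins were at 0.562 for Itgax and 0.185 for Itgam, the latter counted on part of its exons. The plot of levels by mouse shows how far the groups lie apart within each gene.

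**Figure D1:**
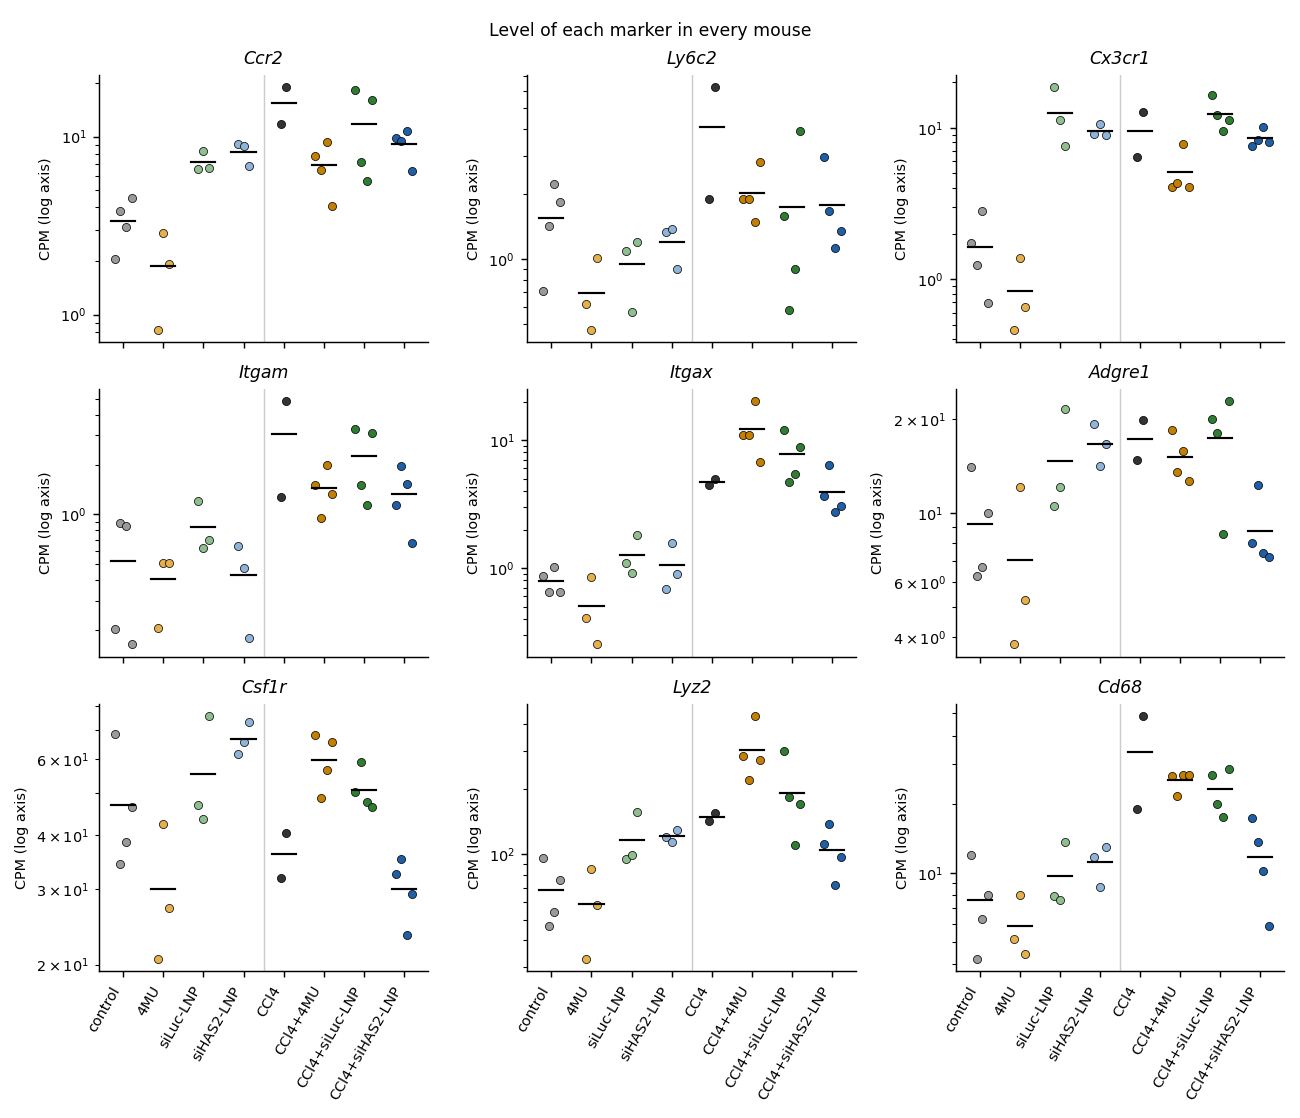
Level of each of the 9 genes in every mouse, in CPM on a log axis, by group (8 groups, 27 mice). Points are mice and bars are group means. Itgax separated all 14 CCl4-treated mice (2.73 to 20.1 CPM) from the 13 others (0.253 to 1.8 CPM), while Csf1r did not, and Cx3cr1 was high in the nanoparticle groups with or without CCl4.

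CCl4 alone raised 7 of the 9 genes over control, against a background of 34% of all genes called in this comparison in either direction. The members' median change was 2.15 on the log2 scale. The 2 that did not pass were the identity genes Adgre1 and Csf1r. DESeq2 called 7 and limma-voom 6. Without CCl4 mouse 2 the count was 4, since Ly6c2, Itgam and Lyz2 no longer passed. In the 4MU arm all 9 rose (CCl4+4MU against 4MU, background 23.7%, median 1.86). In the siLuc-LNP arm 2 rose, Itgax and Cd68 (background 24.2%, median 0.73). The count there was 1 without siLuc-LNP mouse 1 or 2, and 5 without CCl4+siLuc-LNP mouse 3. In the siHAS2-LNP arm Itgax rose and Csf1r fell, so 2 were called (background 12.8%, median 0.12). Over the mean of the 4 arms 7 rose, with Adgre1 and Csf1r again not called, where 51.9% of all genes were called. The members' share of calls was thus above that of all genes for CCl4 alone and the 4MU arm, and near it for the siLuc-LNP and siHAS2-LNP arms.

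**Figure D2:**
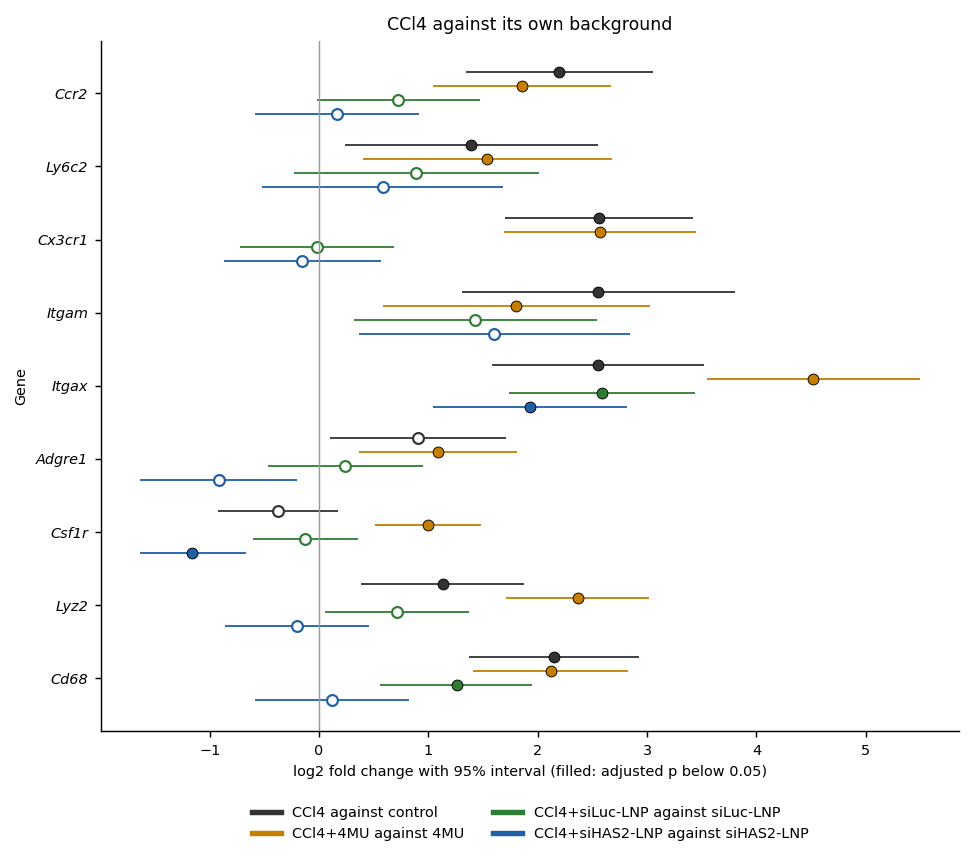
Log2 fold change of each gene with CCl4 within each of the 4 arms, with 95% intervals (filled points have an adjusted p below 0.05). Itgax lies to the right of 0 in every arm, and Csf1r lies to the right in the 4MU arm (0.99) and to the left in the siHAS2-LNP arm (-1.16).

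Ccr2, the receptor through which monocytes follow Ccl2 out of the marrow, was at 2.04, 3.84, 3.12 and 4.5 CPM in the control mice and at 11.8 and 19.1 CPM in the CCl4 mice. In 4MU it was at 0.82, 2.89 and 1.92 CPM, and in CCl4+4MU at 7.83, 6.48, 9.35 and 4.06 CPM. Both comparisons separated every mouse, with a rise of 2.19 (SE 0.414, adjusted p = 0.000167) for CCl4 alone and of 1.86 (SE 0.396, adjusted p = 0.00163) in the 4MU arm. The nanoparticle mice without CCl4 already stood at 6.58, 8.32 and 6.64 CPM (siLuc-LNP) and 9.05, 8.82 and 6.82 CPM (siHAS2-LNP). With CCl4 they were at 18.3, 7.25, 5.64 and 16 CPM (CCl4+siLuc-LNP) and 9.86, 9.47, 10.8 and 6.41 CPM (CCl4+siHAS2-LNP). These ranges overlap, and the changes of 0.73 (SE 0.362, adjusted p = 0.153) and 0.17 (SE 0.364, adjusted p = 0.814) were not called.

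The ligand of Ccr2 followed it in part. Ccl2, made by injured liver cells and macrophages, was at 0.56 to 1.42 CPM in control and at 2.38 and 6.89 CPM in CCl4, a rise of 2.2 (SE 0.597, adjusted p = 0.00475). It was at 0.349 to 1.25 CPM in CCl4+4MU and 0.195 to 0.9 CPM in CCl4+siHAS2-LNP, below both CCl4 mice, and at 0.9 to 4.3 CPM in CCl4+siLuc-LNP. Against CCl4 it fell by 2.63 with 4MU (SE 0.603, adjusted p = 0.00372) and by 2.88 with siHAS2-LNP (SE 0.629, adjusted p = 0.00367). CCl4 mouse 2 decides these calls. Without it the rise over control was 1.25 (adjusted p = 0.264), and the changes against CCl4 were -1.69 (adjusted p = 0.205) and -1.95 (adjusted p = 0.183). Against CCl4+siLuc-LNP, CCl4+siHAS2-LNP was at -1.85 for Ccl2 (SE 0.546, adjusted p = 0.0871). Ccl7, Ccl8 and Ccl12, further chemokines on the list of ligands and partners, stayed below the count filter, with group means of at most 1.45 CPM.

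Ly6c2, the protein by which inflammatory monocytes are sorted, was the least separated of the recruitment genes. It ran from 0.713 to 2.22 CPM in control, and was 1.9 and 6.25 CPM in CCl4. The rise of 1.39 (SE 0.561, adjusted p = 0.049) was carried by mouse 2, without which it was 0.30 (adjusted p = 0.821), and it was also not called without control mouse 1, 2 or 4 (1.16 to 1.49, adjusted p 0.0607 to 0.119). CCl4+4MU mice were at 1.48 to 2.81 CPM and 4MU mice at 0.469 to 1.01 CPM. That rise of 1.54 (SE 0.554, adjusted p = 0.0461) kept its sign without any 1 of the 7 mice, at 1.31 to 1.90, but passed the threshold only without CCl4+4MU mouse 3. With the replicate number as a block it was 1.32 (adjusted p = 0.0953). The close copy Ly6c1 was not called for CCl4 alone, at 0.13 (adjusted p = 0.885), nor in the 4MU arm, at 0.40 (adjusted p = 0.646).

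Cx3cr1, the receptor for the membrane-bound chemokine Cx3cl1 and a marker of patrolling monocytes and of macrophages that line scars and vessels, separated the mice by nanoparticle as well as by CCl4. It was at 1.73, 1.24, 2.82 and 0.695 CPM in control and 0.461, 1.37 and 0.658 CPM in 4MU. It was at 18.7, 11.3 and 7.6 CPM in siLuc-LNP and 9.09, 10.6 and 8.91 CPM in siHAS2-LNP, all without CCl4. The 6 nanoparticle mice without CCl4 (7.6 to 18.7 CPM) thus lay above the 7 other mice without CCl4 (0.461 to 2.82 CPM).

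Against control, Cx3cr1 rose by 2.94 with siLuc-LNP (SE 0.374, adjusted p = 0.000167) and by 2.54 with siHAS2-LNP (SE 0.376, adjusted p = 0.00144), 2 comparisons that share the control mice. It was the 1 member called in each, with backgrounds of 0.213% and 0.0992%. The comparison of siHAS2-LNP with control was added after the siLuc-LNP values were seen. Between the 2 siRNAs no member was called by edgeR (siHAS2-LNP against siLuc-LNP, background 0.0425%), DESeq2 or limma-voom. None had an unadjusted p below 0.05 in edgeR, where 1262 of all 14114 genes did. The difference for Cx3cr1 was -0.39 with a 95% interval from -1.15 to 0.36.

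CCl4 raised Cx3cr1 where no nanoparticle had been given. It was at 6.42 and 12.7 CPM in CCl4 and at 4.09, 4.34, 7.83 and 4.06 CPM in CCl4+4MU, rises of 2.56 over control (SE 0.417, adjusted p = 2.87e-05) and 2.57 over 4MU (SE 0.427, adjusted p = 0.000104). In CCl4+siLuc-LNP it was at 16.4, 12.2, 9.55 and 11.2 CPM and in CCl4+siHAS2-LNP at 7.59, 8.35, 10.2 and 8.01 CPM. These overlapped the particle groups without CCl4, with changes of -0.02 (95% interval -0.73 to 0.68) and -0.15 (95% interval -0.87 to 0.56). The difference between the siLuc-LNP arm and the arm without a treatment was -2.58 (SE 0.539, adjusted p = 0.0816), and missed the threshold. That interaction had 0 members called by edgeR (background 0.00709%), 1 by DESeq2 and 0 by limma-voom. At an unadjusted p below 0.05 in edgeR there were 2, beside 1411 of all 14114 genes. Cx3cl1, the ligand, was at group means of 0.122 to 1.57 CPM, near the counting floor, and was not called in any of the 4 arms. It was higher in CCl4+4MU, at 0.349 to 4.06 CPM, than in CCl4+siHAS2-LNP, at 0 to 0.313 CPM (3.09, SE 0.793, adjusted p = 0.0386).

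Beside Cx3cr1, Marco and C6 from the list of 9 Kupffer markers separated the nanoparticle mice from the others. Clec4f and Timd4 from that list are given below, and its remaining genes only within the sum. Marco, a scavenger receptor, was at 0 to 0.802 CPM in the 14 nanoparticle mice and at 1.23 to 33.5 CPM in the 13 others. C6, a complement gene on the same list of 9 Kupffer markers, was at 1.14 to 3.65 against 5.74 to 19.7 CPM. Cd163, a haemoglobin scavenger receptor that was on no list and was chosen after its values were seen, was at 0.173 to 1.7 against 4.19 to 19.9 CPM. The defining markers Clec4f and Timd4 did not separate the mice without CCl4, at 92.6 to 186 against 77.3 to 208 CPM and 10.3 to 14.6 against 5.74 to 16.3 CPM. With CCl4, Clec4f did separate them, at 20.4 to 68 CPM in the 8 nanoparticle mice against 70.3 to 157 CPM in the 6 others, while Timd4 overlapped at 1.53 to 6.21 against 2.69 to 7.49 CPM. The summed level of all 9 markers was 387 to 589 CPM in the nanoparticle mice without CCl4 and 320 to 649 CPM in control and 4MU. Trem2, a lipid receptor of macrophages at scars, ran the other way in mice without CCl4, at 1.2 to 3.72 against 0.171 to 0.564 CPM. With CCl4 it overlapped, at 7.31 to 24 CPM in the nanoparticle mice against 13.3 to 24.6 CPM in the others. The part of Kupffer cells in the Cx3cr1 result was not tested. The labels give no batch, so an effect of the particles and a batch shared by the nanoparticle groups cannot be told apart.

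Itgax, the integrin subunit CD11c of dendritic cells and of lipid-laden macrophages, was the member with the largest mean rise. In mice without CCl4 it was at 0.865, 0.649, 1.02 and 0.654 CPM (control), 0.41, 0.859 and 0.253 CPM (4MU), 1.09, 0.911 and 1.8 CPM (siLuc-LNP) and 0.687, 1.56 and 0.897 CPM (siHAS2-LNP). With CCl4 it was at 4.43 and 5.01 CPM (CCl4), 10.9, 11, 20.1 and 6.76 CPM (CCl4+4MU), 12, 4.71, 5.4 and 8.84 CPM (CCl4+siLuc-LNP) and 3.68, 6.35, 2.73 and 3.07 CPM (CCl4+siHAS2-LNP). Every CCl4-treated mouse lay above every other mouse.

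The change in Itgax was 2.55 for CCl4 alone (SE 0.47, adjusted p = 0.000119), 2.59 in the siLuc-LNP arm (SE 0.414, adjusted p = 8.94e-05) and 1.93 in the siHAS2-LNP arm (SE 0.431, adjusted p = 0.00408). In the 4MU arm it was 4.52 (SE 0.472, adjusted p = 2.68e-07), or 23-fold. All of these passed whichever mouse was left out. The mean over the arms was 2.90 (SE 0.224, adjusted p = 9.11e-11). Of 7 dendritic cell markers 3 were tested. Over the mean of the arms all 3 (Xcr1, Clec9a and Zbtb46) fell, as did 25.6% of all genes. The ratio of Itgax to Csf1r, each per kilobase of exon, was 0.0142 to 0.0403 in the 13 mice without CCl4. It was 0.121 to 0.539 in the 14 with it.

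Itgam, the integrin subunit CD11b of monocytes and neutrophils, was low throughout. It was 0.204, 0.885, 0.854 and 0.164 CPM in control and 1.27 and 4.82 CPM in CCl4, a rise of 2.55 (SE 0.604, adjusted p = 0.00146). Without CCl4 mouse 2 the rise was 1.30 (adjusted p = 0.244). In the 4MU arm it rose by 1.80 (SE 0.593, adjusted p = 0.0275), and this was not called without 4MU mouse 1, 2 or 3 or CCl4+4MU mouse 3 (1.51 to 2.01, adjusted p 0.056 to 0.107). In the siLuc-LNP and siHAS2-LNP arms the values were 1.43 (adjusted p = 0.0562) and 1.60 (adjusted p = 0.0741). Over the 4 arms the mean rise was 1.85 (SE 0.292, adjusted p = 9.35e-06).

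Itgam is shared with neutrophils, whose markers were followed beside it. Of the 9 neutrophil markers 7 were tested. For CCl4 alone 0 passed in edgeR (background 34%), DESeq2 (36%) or limma-voom (28%). At an unadjusted p below 0.05 in edgeR there were 0, beside 6191 of all 14114 genes. Their summed level was 15.2 to 45.1 CPM in control and 24.1 to 33.6 CPM in CCl4. Ly6g, the defining marker, was at group means of 0.204 to 0.598 CPM. In the 4MU arm edgeR called 2 of 7, S100a9 and Csf3r (background 23.7%), DESeq2 2 (26.1%) and limma-voom 6 (34%). The median change was 1.22. Itgb2, the common partner chain of both integrins, rose by 0.90 for CCl4 alone (adjusted p = 0.0147) and by 1.62 in the 4MU arm (adjusted p = 8.79e-05). Its endothelial counterpart Icam1 rose by 0.70 (adjusted p = 0.00902) and 0.74 (adjusted p = 0.00455), and Vcam1, another adhesion molecule of activated endothelium, by 1.65 (adjusted p = 0.000102) and 1.52 (adjusted p = 0.000298).

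Csf1r, the receptor for the growth factors that keep macrophages alive, went in opposite directions between arms. It was at 68.6, 34.2, 38.6 and 46.4 CPM in control, 31.8 and 40.5 CPM in CCl4, 20.6, 42.4 and 27.1 CPM in 4MU and 68.5, 48.7, 56.7 and 65.7 CPM in CCl4+4MU. It was at 47.1, 43.5 and 75.7 CPM in siLuc-LNP and 50.3, 59.1, 47.7 and 46.4 CPM in CCl4+siLuc-LNP. In siHAS2-LNP it was at 61.8, 65.7 and 73.2 CPM and in CCl4+siHAS2-LNP at 32.4, 35.1, 23.4 and 29.2 CPM. All CCl4+4MU mice lay above all 4MU mice, and all CCl4+siHAS2-LNP mice below all siHAS2-LNP mice.

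Csf1r thus rose by 0.99 in the 4MU arm (SE 0.235, adjusted p = 0.00398) and fell by 1.16 in the siHAS2-LNP arm (SE 0.235, adjusted p = 0.00157). For CCl4 alone it was at -0.37 (SE 0.266, adjusted p = 0.295), and in the siLuc-LNP arm at -0.12 (95% interval -0.61 to 0.36). The CCl4 effect with 4MU exceeded that without a treatment by 1.37 (SE 0.354, adjusted p = 0.0331), the 1 member called in this interaction (background 5.67%). That call was lost with limma-voom (adjusted p = 0.0642), with the replicate block (adjusted p = 0.0517), and without control mouse 1, 4MU mouse 1 or 3, either CCl4 mouse, or CCl4+4MU mouse 1 or 4 (1.13 to 1.53, adjusted p 0.0594 to 0.116). In the Has2 siRNA interaction, the siHAS2-LNP arm set against the siLuc-LNP arm, Csf1r was at -1.03 (SE 0.331, adjusted p = 0.228). There edgeR, DESeq2 and limma-voom called 0 members (background 0.0354%). At an unadjusted p below 0.05 in edgeR there were 3, beside 1612 of all 14114 genes. The ligand Csf1 was not called in any comparison, at group means of 12.6 to 14.5 CPM. The second ligand, Il34, was lower over the mean of the arms, at -0.50 (adjusted p = 0.0229).

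Adgre1, the F4/80 antigen used to stain mouse macrophages, was called in the 4MU arm only. It was 14, 6.26, 6.7 and 10 CPM in control and 14.8 and 19.8 CPM in CCl4, which do not overlap, at 0.90 (SE 0.39, adjusted p = 0.0689). In the 4MU arm it rose by 1.09 (SE 0.35, adjusted p = 0.0286), from 3.79, 12.1 and 5.27 CPM to 18.5, 13.5, 15.8 and 12.7 CPM. That call was lost without 4MU mouse 1 or 3 or CCl4+4MU mouse 1 or 3 (0.80 to 1.06, adjusted p 0.0517 to 0.139), and the rise was 1.73 without 4MU mouse 2. In the siHAS2-LNP arm it went from 19.3, 14.1 and 16.6 CPM to 8.02, 12.3, 7.47 and 7.21 CPM. All 4 mice with CCl4 were lower there, but the change of -0.92 (SE 0.35, adjusted p = 0.0816) missed the threshold.

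Lyz2, lysozyme of monocytes, macrophages and neutrophils, was at 95.9, 46.5, 54.3 and 76.4 CPM in control and 143 and 156 CPM in CCl4. In 4MU it was at 32.8, 85.9 and 58.5 CPM, and in CCl4+4MU at 287, 221, 438 and 273 CPM. The rises were 1.13 for CCl4 alone (SE 0.362, adjusted p = 0.0152; 1.09 without CCl4 mouse 2, adjusted p = 0.102) and 2.37 in the 4MU arm (SE 0.319, adjusted p = 2.42e-05). The nanoparticle arms were not called, at 0.71 for siLuc-LNP (adjusted p = 0.11) and -0.20 for siHAS2-LNP (adjusted p = 0.726). CCl4+siHAS2-LNP mice were at 112, 139, 72 and 97.5 CPM, and overlapped the siHAS2-LNP mice at 120, 114 and 130 CPM. Lyz1 was also highest in CCl4+4MU, at 0.549 to 1.74 CPM against at most 0.627 CPM in any other group.

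Cd68, a glycoprotein of the lysosomal membrane in phagocytes, rose in 3 of the 4 arms. It was at 12, 4.19, 6.28 and 8.01 CPM in control and at 19 and 48.8 CPM in CCl4, a rise of 2.15 (SE 0.38, adjusted p = 7.7e-05), or of 1.34 (adjusted p = 0.033) without CCl4 mouse 2. In the 4MU arm it went from 5.12, 7.97 and 4.41 CPM to 26.5, 21.7, 26.9 and 27 CPM (2.12, SE 0.344, adjusted p = 0.000143). In the siLuc-LNP arm it went from 7.9, 7.58 and 13.6 CPM to 26.8, 20.1, 17.5 and 28.6 CPM (1.26, SE 0.339, adjusted p = 0.01), with an adjusted p of 0.0552 without siLuc-LNP mouse 1 and 0.0558 without mouse 2. In the siHAS2-LNP arm the groups overlapped, at 11.7, 8.68 and 13 CPM without CCl4 and 17.4, 13.6, 10.2 and 5.88 CPM with it (0.12, 95% interval -0.59 to 0.82).

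Within CCl4-injured livers the 4 groups were compared directly, and the 3 comparisons with CCl4 alone share its 2 mice. With 4MU 2 members were called, Ccr2 lower and Itgax higher (background 18.3%). Ccr2 was at -1.16 (SE 0.404, adjusted p = 0.0414) and Itgax at 1.37 (SE 0.418, adjusted p = 0.0327). Csf1r at 0.73 (adjusted p = 0.0645) and Lyz2 at 1.03 (adjusted p = 0.0584) lay higher in all 4 CCl4+4MU mice without passing. Both calls were lost in some settings. Ccr2 was at -0.80 (adjusted p = 0.398) without CCl4 mouse 2, at -1.09 (adjusted p = 0.0837) with the replicate block, and at -0.97 to -1.22 (adjusted p 0.0581 to 0.115) without CCl4+4MU mouse 1, 2 or 4. Itgax was at 1.27 (adjusted p = 0.142) without CCl4 mouse 1, 1.43 (adjusted p = 0.204) without mouse 2 and 1.02 (adjusted p = 0.0929) without CCl4+4MU mouse 3.

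With siLuc-LNP no member was called against CCl4 by edgeR, DESeq2 or limma-voom (background 0.248%). At an unadjusted p below 0.05 in edgeR there was 1, Ly6c2, beside 2001 of all 14114 genes. With siHAS2-LNP the 1 member called was Cd68 (background 14.4%), at -1.50 (SE 0.378, adjusted p = 0.009). All 4 CCl4+siHAS2-LNP mice lay below both CCl4 mice. Without CCl4 mouse 2, at 48.8 CPM, it was -0.69 (adjusted p = 0.446). Adgre1 at -0.98 (adjusted p = 0.0861), Ccr2 at -0.74 (adjusted p = 0.212) and Lyz2 at -0.50 (adjusted p = 0.355) were lower in all 4 mice as well and did not pass.

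**Figure D3:**
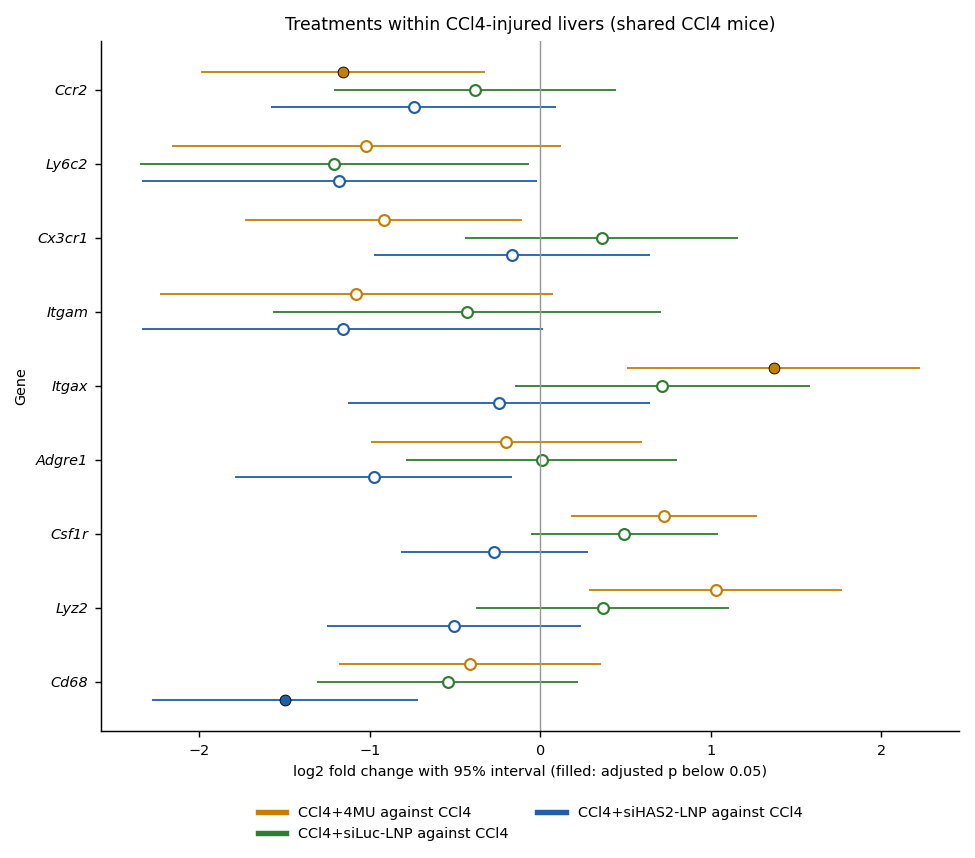
Log2 fold change of each gene with 4MU, siLuc-LNP or siHAS2-LNP against CCl4 alone, with 95% intervals (filled points have an adjusted p below 0.05). Itgax, Csf1r and Lyz2 lie to the right of 0 with 4MU, and Cd68 lies furthest to the left with siHAS2-LNP (-1.50), with all 3 comparisons resting on the same 2 CCl4 mice.

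The siRNA against Has2 was compared with its own control in CCl4+siHAS2-LNP against CCl4+siLuc-LNP. edgeR and limma-voom called 0 members (background 1.09%) and DESeq2 called 1. At an unadjusted p below 0.05 in edgeR there were 5, beside 2349 of all 14114 genes. Those 5 were Adgre1 at -0.98 (adjusted p = 0.124), Itgax at -0.96 (adjusted p = 0.161), Csf1r at -0.76 (adjusted p = 0.0836), Lyz2 at -0.87 (adjusted p = 0.134) and Cd68 at -0.95 (adjusted p = 0.123). Their 95% intervals lay below 0, with Csf1r between -1.21 and -0.31. Every CCl4+siHAS2-LNP mouse was below every CCl4+siLuc-LNP mouse for Csf1r and Cd68, while the other members overlapped. The share of all genes set apart in this way is not given here. CCl4+siHAS2-LNP mouse 4 had the fewest counts of any library.

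The 2 treatments aimed at hyaluronan differed from each other in injured liver. In CCl4+4MU against CCl4+siHAS2-LNP, 3 members were called, all higher with 4MU (background 1.22%, median of the members 0.78). Itgax was 3.05-fold higher (1.61, SE 0.347, adjusted p = 0.0243), Lyz2 2.9-fold (1.53, SE 0.295, adjusted p = 0.0159) and Csf1r 1.99-fold (SE of the log2 value 0.218, adjusted p = 0.025). Cd68 at 1.09 (adjusted p = 0.0756) and Adgre1 at 0.78 (adjusted p = 0.2) were higher in every CCl4+4MU mouse too, while Ccr2, Ly6c2, Itgam and Cx3cr1 overlapped. Cx3cr1 lay the other way, at -0.75 (95% interval -1.42 to -0.08, adjusted p = 0.219). Without CCl4+siHAS2-LNP mouse 3 no member passed (adjusted p 0.0982 to 0.145 for the 3), and without mouse 4, the shallowest library, 1 did, Lyz2. Csf1r was also not called without CCl4+4MU mouse 1 or 4 or CCl4+siHAS2-LNP mouse 2 (adjusted p 0.0545 to 0.113), and Itgax not without CCl4+4MU mouse 3 (adjusted p = 0.0739). 4MU is a gavaged small molecule and siHAS2-LNP an injected particle, so target and route cannot be told apart in this comparison.

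Setting the CCl4 effect of the 4MU arm against that of the siHAS2-LNP arm, a contrast added after the values of Csf1r were seen, gave 6 members with a larger effect under 4MU (background 1.82%). Csf1r differed by 2.15 (SE 0.332, adjusted p = 0.00172), Cx3cr1 by 2.72 (SE 0.551, adjusted p = 0.00876) and Lyz2 by 2.57 (SE 0.451, adjusted p = 0.00384). Itgax differed by 2.59 (adjusted p = 0.0314), Adgre1 by 2.01 (adjusted p = 0.0345) and Cd68 by 2.01 (adjusted p = 0.0312). The last 3 were lost with the replicate block (adjusted p 0.0503 to 0.0543). Among the 14 fits that each left out 1 mouse of these groups, Itgax was not called in 7, and Adgre1 and Cd68 in 9 each. Only 3 members passed without 4MU mouse 1 or 3, CCl4+4MU mouse 3, siHAS2-LNP mouse 3, or CCl4+siHAS2-LNP mouse 3 or 4. The baselines of the arms differ, as Cx3cr1 showed. In siHAS2-LNP and 4MU without CCl4 it was at 8.91 to 10.6 against 0.461 to 1.37 CPM.

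4MU given without CCl4 called no member against control in edgeR, DESeq2 or limma-voom (background 0.00709%). At an unadjusted p below 0.05 in edgeR there were 3, beside 966 of all 14114 genes. Those were Csf1r at -0.64 (adjusted p = 0.531), Ly6c2 at -1.17 (adjusted p = 0.727) and Cx3cr1 at -0.93 (adjusted p = 0.724). All 9 ranges overlapped between 4MU and control.

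Genes on the macrophage lists, made with earlier results of these data known, divided by kind. The scar-associated list includes Spp1, which the study used as a marker of cholangiocytes, so its counts and sums are not specific to macrophages. Of 7 genes of scar-associated macrophages, 6 rose in each of the 4 arms, with a median of 2.55 over the mean of the arms. Of all genes, 18% rose for CCl4 alone, 13.2% with 4MU, 13% with siLuc-LNP and 7.74% with siHAS2-LNP. Gpnmb, a glycoprotein of lipid-loaded phagocytes, rose by 7.13 (SE 0.368, adjusted p = 4.64e-14) and Trem2 by 4.02 (SE 0.192, adjusted p = 1.15e-14). Between CCl4+4MU and CCl4+siHAS2-LNP, Gpnmb was at 1.17 (adjusted p = 0.163) and Trem2 at 0.82 (adjusted p = 0.113).

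Of 9 Kupffer markers, 5 fell over the mean of the arms and none rose (median -0.54), where 25.6% of all genes fell. Timd4 fell by 1.42 (adjusted p = 2.79e-08) and Clec4f by 1.07 (adjusted p = 2.47e-06). By arm, 2 of 9 fell for CCl4 alone (16.1% of all genes), 1 with 4MU (10.5%), 3 with siLuc-LNP (11.2%) and 6 with siHAS2-LNP (5.09%). Marco rose for CCl4 alone and with 4MU. In the siHAS2-LNP arm, where Csf1r fell, the summed Kupffer markers were at 499 to 507 CPM without CCl4 and 232 to 259 CPM with it. In the siLuc-LNP arm they were lower with CCl4 as well, at 387 to 589 CPM without it and 245 to 380 CPM with it. Csf1r was not called in that arm (-0.125, adjusted p = 0.739). The part of Kupffer cells in the fall of Csf1r was not tested.

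**Figure D4:**
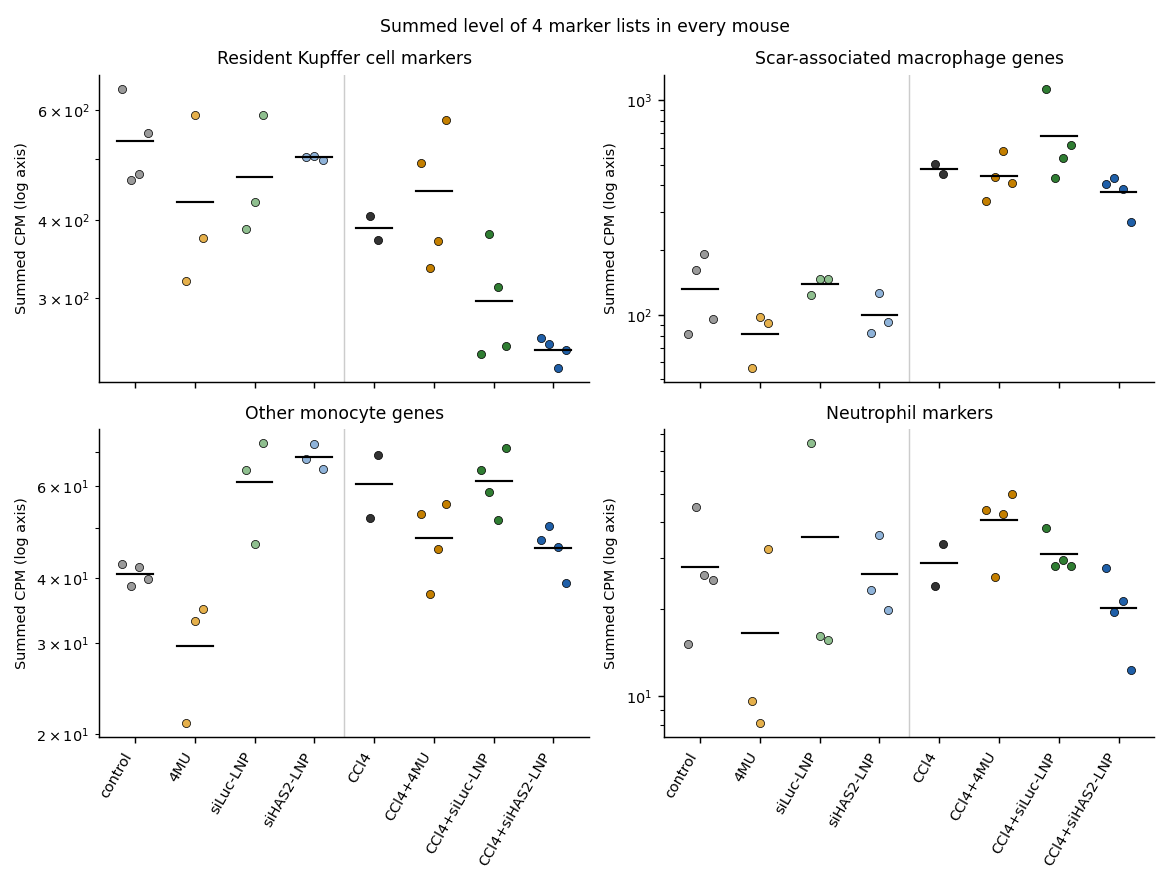
Summed level per mouse of 4 gene lists (Kupffer cell, scar-associated macrophage, other monocyte and neutrophil genes), in CPM on a log axis, by group. The scar-associated list includes Spp1, which the study used as a marker of cholangiocytes. Scar-associated genes separate the CCl4-treated mice (271 CPM and above) from the others (191 CPM and below). Kupffer markers have their lowest group median in CCl4+siHAS2-LNP (232 to 259 CPM), which CCl4+siLuc-LNP overlaps (245 to 380 CPM).

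Other monocyte genes, 11 in all, were called 5 times for CCl4 alone (Vcan, Chil3, Ms4a4c, Ace and Plac8, all higher), where 34% of all genes were called. With CCl4 in the 4MU arm 3 rose (Ace, Ms4a4c and Plac8, background 23.7%), and in the siLuc-LNP arm 2 (Vcan and Ace, background 24.2%). In the siHAS2-LNP arm Chil3 rose and Treml4 and Itgal fell (background 12.8%). Of 16 genes shared by macrophages, 12 rose in the 4MU arm (median 1.10), where 13.2% of all genes rose. Among them were the complement genes C1qa, C1qb and C1qc, the protease Ctss and the transcription factor Spi1 (PU.1) at 1.42 (adjusted p = 0.000277). In the siHAS2-LNP arm C1qa, C1qb and C1qc fell, where 5.09% of all genes fell. For CCl4 alone Cd14, Ctss, Laptm5 and Fcgr1 rose, where 18% of all genes rose. C1qa was at 0.76 (SE 0.223, adjusted p = 0.0165) with 4MU and -1.30 (SE 0.225, adjusted p = 0.000325) with siHAS2-LNP.

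Ordered by group mean, few neighbouring groups were set apart in any member. Itgax had 1 gap among its 7 neighbouring pairs, between CCl4+siHAS2-LNP at 3.96 ± 1.64 CPM (SD, n = 4) and siLuc-LNP at 1.27 ± 0.47 CPM (SD, n = 3). Cx3cr1 had 1, between CCl4+4MU and control. Lyz2 had 1, between CCl4 at 149 CPM and siHAS2-LNP at 121 CPM, and Cd68 had 1, between CCl4+siLuc-LNP at 23.2 CPM and CCl4+siHAS2-LNP at 11.8 CPM. For Ly6c2, Ccr2, Adgre1, Itgam and Csf1r every pair of neighbours overlapped.

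Among the 14 CCl4-treated mice, Spearman's rho between pairs ran from -0.345 (Ccr2 and Csf1r) to 0.868 (Itgax and Lyz2), with a median of 0.411 over 36 pairs. In the 13 other mice the median was 0.55 and the highest value 0.967 (Adgre1 and Lyz2). With group means subtracted, the median was 0.532 in the CCl4-treated mice, where Ccr2 and Csf1r were at -0.103, 0.096 in the others and 0.305 over all mice. These are descriptions over points that share a library, its depth and its group. Csf1r and Lyz2 also ran with total counts among the CCl4-treated mice (rho 0.657 and 0.578).

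**Figure D5:**
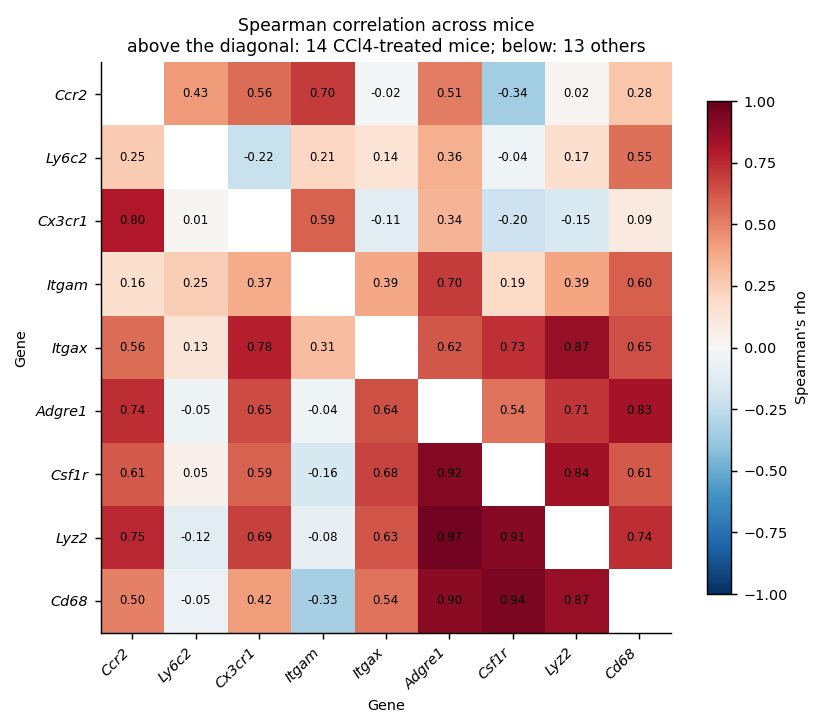
Spearman's rho of log2 CPM between each pair of the 9 genes, above the diagonal over the 14 CCl4-treated mice and below it over the 13 other mice. Itgax and Lyz2 ran closest with CCl4 (0.868) and Ccr2 and Csf1r furthest apart (-0.345).

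Over the same 14 mice, the gene closest to Itgax was Gpnmb (rho 0.934), followed by Gab2 (0.925) and Ctsk (0.895), a lysosomal protease. The gene closest to Csf1r was C1qb (0.956), a complement gene of tissue macrophages, followed by Cd300c2 (0.938) and Scube1 (0.93). Lyz2 ran with the proton channel Hvcn1 (0.93), Vsir (0.921) and Ctss (0.916), and Cd68 with Hk1 (0.965), Homer3 (0.943) and Flna (0.916). Itgam ran with Ppic (0.947), Frmd4a (0.925) and Akap12 (0.916), and Adgre1 with Ptk7 (0.934), Mcub (0.93) and Armcx2 (0.925). The nearest genes of the recruitment receptors were Rpf2 (0.96), Cep43 (0.956) and Cacybp (0.947) for Ccr2 and Sumo2 (0.912), Leo1 (0.912) and Cycs (0.899) for Cx3cr1. Ly6c2 ran with the interferon-induced Oasl1 (0.912) and Oas3 (0.868), then Hspa9 (0.846).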

How the data were processed

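Poly(A) RNA from 27 livers was sequenced in paired reads of at least 85 bases from directional libraries. The deposited table holds the authors' raw counts per Ensembl gene on GRCm39. Per the study's methods and the submitters' processing notes, reads were trimmed with Trimmomatic 0.39, aligned with HISAT2 and counted with featureCounts in R 3.4.2 without multi-mapping reads. Versions of HISAT2 and featureCounts and the strand setting are not given in the sources used here. Reads shared by copies or by overlapping genes of the same strand are therefore missing from Ly6c2 and Itgam. For Lyz2 and Csf1r, whose shared windows lie mostly in a gene on the opposite strand, the loss depends on the strand setting.

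The 9 genes and all gene lists were chosen with earlier results of these data known. Counts were scaled by TMM, genes with a mean below 10 counts were dropped, and 1 edgeR 4.0.16 quasi-likelihood fit (R 4.3.3) covered all 8 groups, with 18 contrasts and Benjamini-Hochberg adjustment over 14114 genes. CPM are on TMM-scaled totals. Symbols and exon lengths came from GENCODE M39, which held 54749 of the 55414 identifiers. Of 119 genes on 17 lists 118 were matched and 101 tested. The genes named are the 9 members, their ligands and partners, the closest copies, and the 3 genes nearest to each member by rank correlation, with the defining or most changed genes of the other lists. Total counts per mouse ran from 7044386 to 29425937. Same-group libraries differed beyond sampling noise in all 34 pairs. Group labels came from the sample titles. P-values measure the spread between mice of a group.

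Alternatives were DESeq2 1.42.0, limma-voom (limma 3.58.1) with sample weights, DESeq2 size factors in edgeR, no filter, filterByExpr, a block for the mouse number, a fit restricted to the groups compared, and each mouse left out. The 4MU against siHAS2-LNP arm contrast and siHAS2-LNP against control were added after the data were seen. The procedure was tested on simulated data. Amino acid sequences were not used here, and 1 gene of the lists is not reported here.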

Additional observations from a re-analysis of the deposited data

Results flagged for a closer look

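Among 36 groups of 4 mice (9 genes in 4 groups), 3 held a mouse set apart from the other 3 beyond Dixon's 95% critical value, and chance flags about 1 in 20 such groups. In CCl4+4MU the highest mouse for Cx3cr1 was at 7.83 CPM, with the other 3 at 4.06 to 4.34 CPM. In the same group the lowest mouse for Cd68 was at 21.7 CPM, with the others at 26.5 to 27 CPM. In CCl4+siHAS2-LNP the highest mouse for Adgre1 was at 12.3 CPM, with the others at 7.21 to 8.02 CPM.

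A test of the difference in the CCl4 effect between arms passed the threshold for 7 results. For Csf1r the effect with 4MU exceeded that without a treatment by 1.37 on the log2 scale. That call was lost in several settings, as given above. Between the 4MU and the siHAS2-LNP arm the effect differed by 2.72 for Cx3cr1, 2.01 for Adgre1, 2.59 for Itgax, 2.15 for Csf1r, 2.57 for Lyz2 and 2.01 for Cd68, with the larger effect in the 4MU arm for each. This second contrast was added after the values of Csf1r were seen. Among its 14 fits without 1 mouse, Itgax was not called in 7, and Adgre1 and Cd68 in 9 each.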

How the results depend on the processing

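The counts of members called moved as follows, smaller moves included, with the share of all genes called in that setting in brackets. Without the low-count filter they were 5 (11.2%) for CCl4+siLuc-LNP against siLuc-LNP, 4 (6.31%) for CCl4+siHAS2-LNP against siHAS2-LNP, 5 (8.45%) for CCl4+4MU against CCl4, 2 (6.72%) for CCl4+siHAS2-LNP against CCl4, 5 (2.1%) for CCl4+siHAS2-LNP against CCl4+siLuc-LNP, 5 (3.13%) for CCl4+4MU against CCl4+siHAS2-LNP, 2 (0.459%) for siLuc-LNP against control, 4 (0.619%) for siHAS2-LNP against control, 3 (4.45%) for the 4MU interaction, 2 (0.632%) for the siLuc-LNP interaction and 3 (304 of 31177 genes) for the Has2 siRNA interaction. They were also 8 (14.9%) for CCl4 against control, 8 (25.6%) for the mean over the arms and 7 (2.62%) for the contrast of the 4MU and siHAS2-LNP arms. DESeq2 gave 1 (2.98%) for CCl4+siHAS2-LNP against CCl4+siLuc-LNP, 2 (10.1%) for the 4MU interaction, 1 (0.269%) for the siLuc-LNP interaction, 7 (4%) for the arm contrast, 4 (3.76%) for CCl4+4MU against CCl4+siHAS2-LNP, and 3 each for CCl4+4MU against CCl4 (21.5%) and the siLuc-LNP (26.4%) and siHAS2-LNP (15.5%) arms. limma-voom gave 4 (24.5%) for CCl4+siHAS2-LNP against siHAS2-LNP, 0 (14.6%) for CCl4+4MU against CCl4, 0 (7.94%) for the 4MU interaction, 6 (28%) for CCl4 against control and 4 (7.26%) for CCl4+4MU against CCl4+siHAS2-LNP. With the fit restricted to the groups compared, CCl4+siHAS2-LNP gave 4 (16.5%) against siHAS2-LNP and 2 (11.5%) against CCl4, and CCl4+4MU gave 3 (15%) against CCl4. The reported counts are 7 for CCl4 against control and for the mean over the arms, 2 for the siLuc-LNP and siHAS2-LNP arms and for CCl4+4MU against CCl4, 6 for the arm contrast and 3 for CCl4+4MU against CCl4+siHAS2-LNP. They are 9 for CCl4+4MU against 4MU, and 1 for CCl4+siHAS2-LNP against CCl4, for siLuc-LNP and siHAS2-LNP against control and for the 4MU interaction. For the other comparisons they are 0. The fit restricted to the groups compared does not apply to the mean over the arms. The causes were not tested.

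Same-numbered mice did not deviate together (83 pairs, r -0.32 to 0.293, median -0.0167), so numbers do not pair them. With the replicate block the count was 1 for CCl4+4MU against CCl4, 0 for the 4MU interaction, 3 for the contrast of the 4MU and siHAS2-LNP arms (6 without it) and 8 for CCl4+4MU against 4MU (9).

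Leaving out 1 mouse at a time gave 4 to 7 for CCl4 against control, 6 to 8 for CCl4+4MU against 4MU, 1 to 5 for CCl4+siLuc-LNP against siLuc-LNP, 0 to 3 for CCl4+4MU against CCl4, 0 to 1 for CCl4+siLuc-LNP against CCl4, 0 to 2 for CCl4+siHAS2-LNP against CCl4, 0 to 1 for CCl4+siHAS2-LNP against CCl4+siLuc-LNP, 0 to 4 for CCl4+4MU against CCl4+siHAS2-LNP, 0 to 1 for the 4MU and the siLuc-LNP interactions and 3 to 6 for the arm contrast. Fits with 1 CCl4 mouse assume that it varies like the other groups. Of 42 calls of single members none changed sign, and 17 were lost in at least 1 setting. Itgam and Ly6c2, the members with the fewest counts per kilobase, are limited most by depth.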
